A study of Mus musculus with 20 samples.

Results

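Heme is built in 8 enzymatic steps. Its breakdown to bilirubin takes a further 2. The genes described here are 9 enzymes of this route, taken by symbol from the deposited tables, which hold 25444 loci. They comprise 7 enzymes of synthesis (Alas1, Alad, Uros, Urod, Cpox, Ppox and Fech) and 2 of breakdown (Hmox1 and Blvrb). Each of the 9 symbols was found once, and all 9 genes passed the filter on low counts that left 13704 genes for testing. The livers came from 20 mice killed at 20 weeks of age, 5 for each sex of 2 inbred strains, C57BL/6N (B6) and C3H/HeN (C3). No mouse carried a transgene or received a treatment according to the labels. Males and females were housed in different rooms, and an effect of room cannot be told apart from one of sex. The 4 groups are called B6 females, B6 males, C3 females and C3 males.

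In the liver, heme is made chiefly for the cytochrome P450 enzymes, and Alas1, the first enzyme, sets the pace of synthesis and is repressed when heme is plentiful. The intermediates pass from the mitochondrion to the cytosol and back: Alad, Uros and Urod act in the cytosol, Cpox and Ppox in the mitochondrion, and Fech inserts the iron. Hmox1 opens the heme ring to give biliverdin, iron and carbon monoxide, and the biliverdin reductases produce bilirubin, which hepatocytes conjugate and send into bile.

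Differences by strain or sex were called for 3 of the 9 enzymes, Alad, Cpox and Blvrb. Of all genes tested, 6.34% and 6.90% were called by sex in B6 and C3. By strain, 9.40% were called in females and 9.64% in males. The share of all genes called in at least 1 comparison was not computed. Alad, which joins 2 molecules of aminolevulinic acid to porphobilinogen, was 2.07-fold higher in C3 than in B6 females and 2.38-fold higher in C3 than in B6 males. Blvrb, a biliverdin and flavin reductase, was 1.72-fold lower in C3 than in B6 males. Cpox, which converts coproporphyrinogen to protoporphyrinogen, was lower in females of both strains, by 1.46-fold in B6 and 1.62-fold in C3. The Cpox call held in 7 of 13 alternative settings in B6 and in 11 of 13 in C3. Alas1 ranged from 31.2 to 327 CPM (read counts scaled to library size) between single livers without a called difference between groups.

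The promoters of the 4 genes that these values turn on are shown so that the sequence just upstream of each gene can be read beside its levels. Each is the 250 bases before the start site in the RefSeq table (GRCm38.p6), written 5′ to 3′ along the gene's own strand. The letters are those of the reference genome, and none was read from the C3 or B6 livers. The 7 members with an entry in that table each have a window that was found once in mm9, the build of the count tables, and that ends at the gene's annotated 5′ end in the count tables. For 4 of them (Alas1, Alad, Uros and Blvrb) the RefSeq table also holds a second start site downstream, whose window was not searched. Alas1 lies on the minus strand of chromosome 9 (window chr9:106150286-106150535), Alad on the minus strand of chromosome 4 (chr4:62181098-62181347), Cpox on the plus strand of chromosome 16 (chr16:58670071-58670320) and Blvrb on the plus strand of chromosome 7 (chr7:28232747-28232996). Capitals mark the matches to the motifs searched on both strands.
Alas1: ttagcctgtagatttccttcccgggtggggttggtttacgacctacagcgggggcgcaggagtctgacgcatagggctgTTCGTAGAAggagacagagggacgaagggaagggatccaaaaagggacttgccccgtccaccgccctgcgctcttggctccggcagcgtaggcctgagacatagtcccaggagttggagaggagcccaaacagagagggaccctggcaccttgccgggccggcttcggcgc
Alad: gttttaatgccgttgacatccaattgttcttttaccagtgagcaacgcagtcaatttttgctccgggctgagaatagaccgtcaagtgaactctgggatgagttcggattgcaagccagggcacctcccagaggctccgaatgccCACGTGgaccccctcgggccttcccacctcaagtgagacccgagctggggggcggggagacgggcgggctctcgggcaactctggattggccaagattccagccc
Cpox: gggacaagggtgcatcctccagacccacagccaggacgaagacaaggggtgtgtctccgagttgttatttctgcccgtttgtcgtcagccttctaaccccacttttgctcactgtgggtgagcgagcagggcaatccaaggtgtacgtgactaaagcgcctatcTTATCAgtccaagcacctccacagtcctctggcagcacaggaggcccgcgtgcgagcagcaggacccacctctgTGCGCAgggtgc
Blvrb: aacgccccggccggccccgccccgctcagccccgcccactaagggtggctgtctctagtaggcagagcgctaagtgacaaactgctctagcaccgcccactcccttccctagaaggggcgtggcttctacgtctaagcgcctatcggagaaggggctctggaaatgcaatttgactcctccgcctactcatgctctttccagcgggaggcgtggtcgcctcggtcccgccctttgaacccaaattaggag

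The Alas1 window holds 1 match to TTCNNNGAA, the core bound by STAT5 and BCL6, at -171 from the start site, and 7.02% of 32851 promoter windows of the same length hold this motif. The Alad window holds CACGTG, the E-box of clock factors, at -105. The same E-box is in the windows of Uros at -250 and Urod at -49, so that 3 of the 7 windows searched hold it, against 6.02% of all windows. The Uros window (chr7:140900979-140901228) overlaps the annotated neighbour Bccip (chr7:140901016-140912828), and its E-box lies within that overlap. In the Cpox window, TGCGCA, the core of the nuclear respiratory factor 1 site, starts at -12 (6.43% of all windows). A GATA core, TGATAA on the opposite strand, starts at -86 (AGATAA or TGATAA, 16.6% of all windows). None of the 7 windows holds TGACNNNGC, the core of the antioxidant response element, which 10.2% of all windows hold. The Blvrb and Ppox windows hold none of these letters. A match here is a description of the reference sequence and not a bound site.

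Library totals lay between 27370921 and 46835745 counted read pairs, and the smallest count of any member in any liver was 365, for Ppox. The 20 libraries were sequenced in 3 pools of 8, 5 and 7 libraries, with 1 or 2 livers of each group in each pool, and pool 3 was also the deepest. Pool 3 stood apart: 20% of all genes tested were called between pools 3 and 1, against 1.16% between pools 2 and 1. Pool was a term of the fit, and values within pools are given beside each called difference of a member. The hepatocyte markers were the most abundant of the cell type lists, with summed levels between 99330 and 184000 CPM. Of the erythroid markers, 8 loci under 6 globin symbols were listed at 0 in every library, and the list summed to between 2.14 and 6.35 CPM, so blood cells were checked by the other erythroid genes alone.

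Levels between genes were compared on the deposited TPM values, which account for gene length. Blvrb was the most abundant of the 9 with a mean TPM of 160 over the 20 livers, followed by Fech at 129, Cpox at 116, Alad at 97.2, Alas1 at 93.7 and Urod at 79.7. Hmox1 at 26.3, Ppox at 17.4 and Uros at 15.7 formed a lower tier. The TPM of Fech, between 103 and 156 over single livers, did not overlap that of Urod, between 68.7 and 93.2. Blvrb, Fech, Cpox, Alad and Alas1 overlapped with their neighbours in this order. Hmox1, Ppox and Uros stayed below the lowest liver of every gene of the upper tier except Alas1, whose lowest liver had a TPM of 20.7 against a highest Hmox1 value of 35.5.

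**Figure D1:**
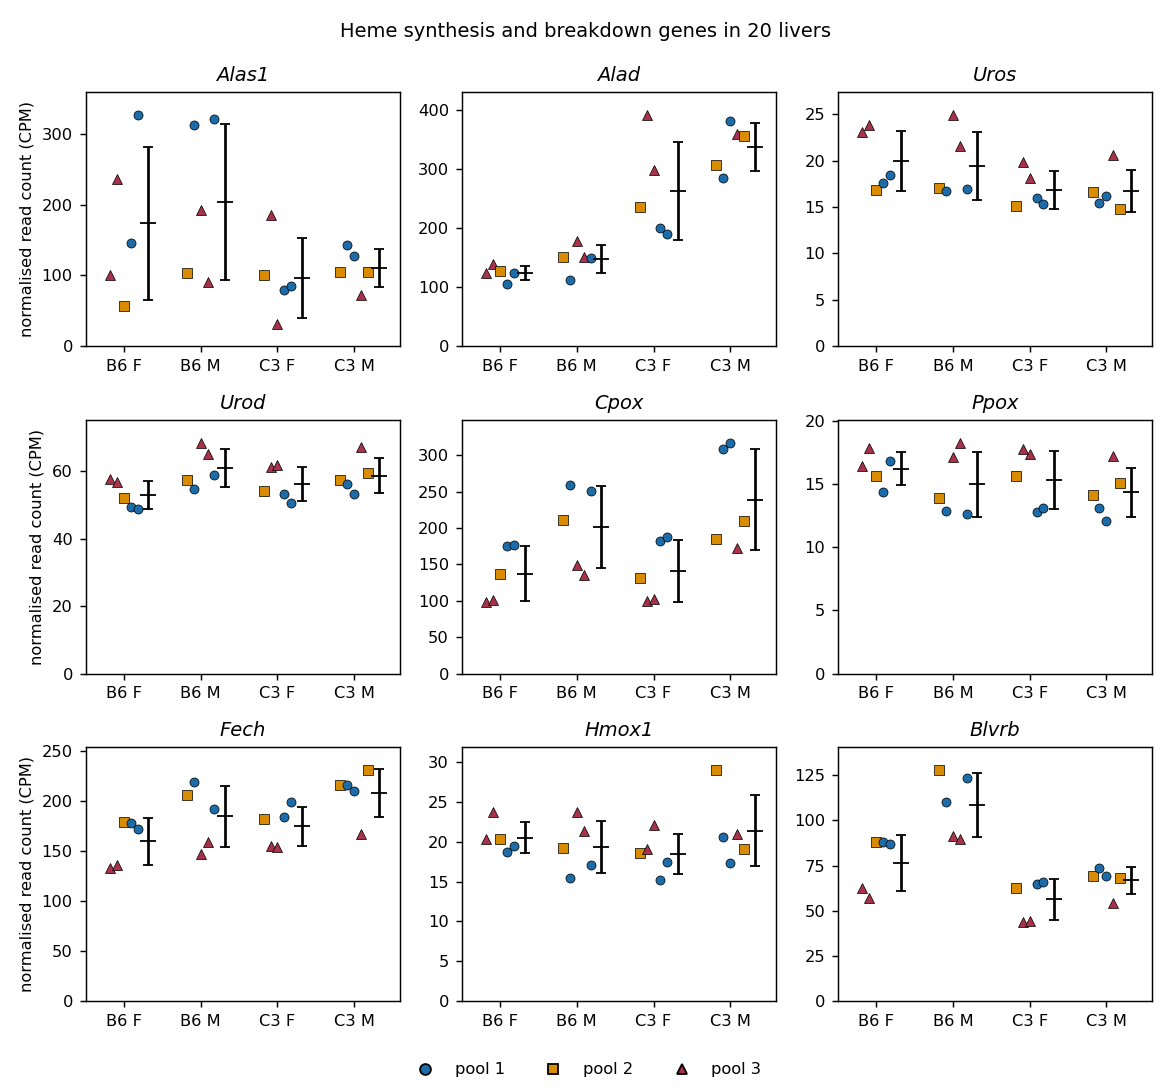
Normalised read counts (CPM, linear axis from 0) of the 9 genes in each of the 20 livers by group; symbol and colour give the sequencing pool, and the bar beside each group gives the mean and SD of 5 livers. All C3 livers lie above all B6 livers for Alad within each sex, while in Cpox and Fech the pool 3 livers lie lowest in every group.

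Alad (17025) had the largest strain difference of the 9 genes by fold, while Blvrb had the smaller p in both sexes. Its normalised read counts in B6 females were 124, 139, 127, 105 and 124 CPM, and in C3 females 235, 391, 298, 200 and 189 CPM. In B6 males they were 151, 111, 177, 150.4 and 148 CPM, and in C3 males 307, 284, 382, 359 and 356 CPM. Every C3 liver was above every B6 liver of the same sex, and the C3 females spread most, with an SD of 83.4 CPM against 12.2 CPM in B6 females. The log2 fold change of C3 against B6 was 1.05 in females (SE 0.13, adjusted p = 3.1e-06) and 1.25 in males (SE 0.13, adjusted p = 3.7e-07) by edgeR's quasi-likelihood test with Benjamini-Hochberg adjustment over all genes tested. Within pools 1, 2 and 3 the log2 difference was 0.77, 0.88 and 1.38 in females and 1.36, 1.13 and 1.14 in males. Without the 7 libraries of pool 3 the difference in females was 0.80 with an adjusted p of 0.0012, just over the threshold of 0.001, and the call was lost.

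Alad differed less by sex. In C3 the female level was 1.36-fold lower (log2 fold change -0.45, SE 0.13, adjusted p = 0.010), under the fold threshold, and in B6 it was 1.19-fold lower (-0.25, SE 0.13, adjusted p = 0.14). Leaving out C3 female replicate 2, the highest C3 female liver at 391 CPM, moved the C3 value to -0.56 with an adjusted p of 0.00068, and Alad was then called. The sex difference passed no threshold in the test of its difference between strains (-0.20, 95% interval -0.58 to 0.17, adjusted p = 0.64).

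The genes whose pattern over the 20 livers was most like that of Alad were Hdhd3, Ccdc126 and Rhobtb3. Likeness was measured as the root mean square difference of log2 CPM after centring each gene, which was 0.20, 0.23 and 0.23, against 0.63 for Alad from its own mean. A gene picked in this way shares the group differences of the member in part by the choice. Its tests over the same livers are a description and no separate evidence. Hdhd3 is the annotated neighbour of Alad on chromosome 4 (chr4:62160088-62163234, against chr4:62167018-62181097 for Alad, mm9), whereas Ccdc126 lies on chromosome 6 and Rhobtb3 on chromosome 13. Hdhd3 had normalised read counts of 14.7, 16.2, 11.3, 15.7 and 18.8 CPM in B6 females and 29.2, 51.2, 29.6, 21.5 and 22.0 CPM in C3 females. In males it had 23.9, 13.2, 22.5, 21.5 and 17.3 CPM in B6 and 38.8, 36.0, 41.1, 51.6 and 44.4 CPM in C3. As for Alad, no C3 liver fell within the B6 range of its sex. The log2 fold change of C3 against B6 was 0.95 in females (SE 0.18, adjusted p = 0.00045) and 1.17 in males (SE 0.18, adjusted p = 5.6e-05). Pole3, the neighbour on the other side, had values of -0.24 and -0.39 in the same comparisons (adjusted p = 0.024 and 0.00099), of which neither passed the fold threshold. No member overlaps another annotated gene in the tables.

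**Figure D2:**
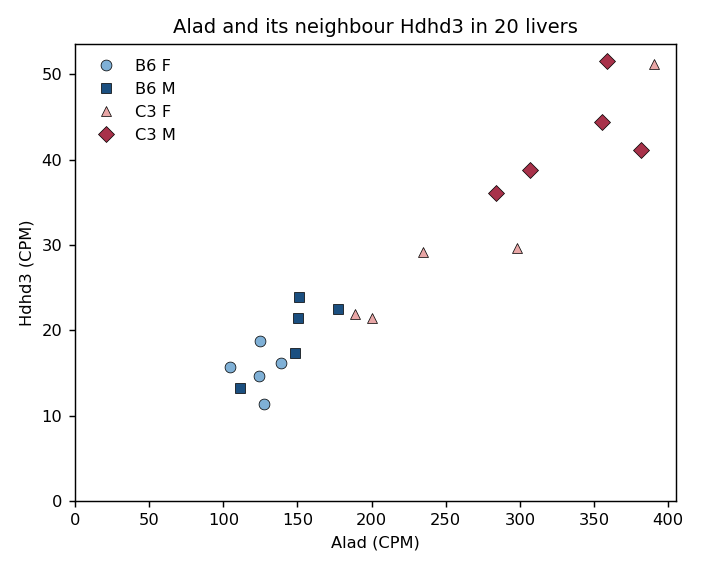
Normalised read counts of Hdhd3 (vertical axis, CPM) against those of Alad (horizontal axis, CPM), each point 1 of 20 livers, with both axes from 0. The C3 livers reach 391 CPM of Alad and 51.6 CPM of Hdhd3, and the B6 livers stay at or below 177 and 23.9 CPM.

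Among the enzymes that differed by sex, Cpox (Entrez ID 12892, chr16:58670321-58680502, mm9) was lower in females of both strains. In B6 females its normalised read counts were 97.9, 101, 137, 175 and 177 CPM, and in B6 males 212, 259, 149, 136 and 251 CPM. In C3 females they were 132, 99.6, 103, 183 and 187 CPM, and in C3 males 185, 309, 317, 173 and 209 CPM. The sexes overlapped over all livers, but within every pool and strain each female liver was below each male liver. The log2 fold change of female against male was -0.55 in B6 (SE 0.06, adjusted p = 1.6e-06) and -0.69 in C3 (SE 0.06, adjusted p = 9.5e-08). Within pools 1, 2 and 3 the log2 difference was -0.54, -0.63 and -0.51 in B6 and -0.76, -0.58 and -0.77 in C3. Between strains, Cpox had a log2 fold change of 0.03 in females (adjusted p = 0.77) and 0.17 in males (adjusted p = 0.034).

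Cpox also had the largest difference of the 9 genes between pools 3 and 1, with a level in pool 3 that was 0.552 times that in pool 1. Its level in pool 2 was 0.721 times that in pool 1, where Alas1 was at 0.581 times. The genes most like it over the 20 livers were Lsm12, Polb and Dnajc1, with root mean square log2 differences of 0.14, 0.17 and 0.17 against 0.51 for Cpox from its own mean. Lsm12 had female against male log2 fold changes of -0.52 in B6 and -0.57 in C3 (adjusted p = 9.4e-06 and 4.4e-06), and Polb, a DNA repair polymerase, of -0.58 and -0.71 (9.1e-08 and 7.6e-09). Dnajc1 was not called by sex, with values of -0.29 and -0.42. Pool was not removed from the levels on which this likeness was measured. Sex differences shared with Cpox follow in part from how these genes were chosen.

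Blvrb (233016, chr7:28232997-28251000) was the member that differed by both sex and strain. Its normalised read counts were 62.7, 57.0, 87.9, 88.4 and 86.9 CPM in B6 females and 128, 111, 91.4, 89.6 and 123 CPM in B6 males. In C3 females they were 62.7, 43.9, 44.4, 65.1 and 65.7 CPM, and in C3 males 69.2, 73.6, 69.2, 54.2 and 68.1 CPM. B6 males were the high group, and their lowest liver lay above every liver of the other groups. The log2 fold change of female against male in B6 was -0.51 (SE 0.05, adjusted p = 3.5e-07), and that of C3 against B6 in males was -0.79 (SE 0.05, adjusted p = 6.3e-10). In females the strain difference was -0.44 (SE 0.05, adjusted p = 1.3e-06), which passed the p threshold and not the fold threshold of 0.5. In C3 the sex difference was -0.17 (SE 0.05, adjusted p = 0.014).

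The sex difference of Blvrb was smaller in C3 than in B6 by 0.34 on the log2 scale (SE 0.07, adjusted p = 0.0096, interaction test), which passed an adjusted p of 0.05 and not the calling rule. Over the other settings its adjusted p ran from 0.00078 with DESeq2 to 0.99 without the pool covariate and 1 in the test against a log2 fold change of 0.5, and was 0.23 without pool 3. Within pools 1, 2 and 3, the female against male log2 difference was -0.41, -0.54 and -0.60 in B6 and -0.13, -0.13 and -0.30 in C3. The strain difference within pools was -0.42, -0.49 and -0.44 in females and -0.71, -0.90 and -0.74 in males. All 12 of these values were negative. Gapdh, the glycolytic enzyme often used as a reference gene, had the pattern most like Blvrb, with a root mean square log2 difference of 0.15 against 0.42 for Blvrb from its own mean, followed by Cux1 at 0.16 and Adi1 at 0.18. Gapdh was called as lower in B6 females than in B6 males (-0.53), and as lower in C3 than in B6 in females (-0.58) and males (-0.83). Cux1 and Adi1 were called as lower in C3 females than in B6 females (-0.55 and -0.56), and Cux1 also in males (-0.67). Group differences shared with Blvrb follow in part from how these genes were chosen.

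Markers of Kupffer cells, the resident macrophages that take up old red cells and recycle their heme, had negative C3 against B6 medians, as Blvrb had negative values, and positive female against male medians where Blvrb had negative values. Of 8 such markers, 5 were called as lower in C3 than in B6 females (Clec4f, Vsig4, Cd163, Adgre1 and Csf1r) and 4 in males (Vsig4, Cd163, Adgre1 and Csf1r). Their summed level was 459 to 583 CPM in B6 and 296 to 443 CPM in C3 females, and 297 to 444 CPM in B6 and 211 to 305 CPM in C3 males. None of the 8 was at 0. The median log2 fold change of female against male over the 8 was 0.48 in B6 and 0.38 in C3, with Vsig4 called by edgeR as higher in females of both strains. DESeq2 called 0 of the 8 by sex in C3. In bulk tissue fewer cells of a type and less RNA per cell cannot be told apart, and the part of these cells in the values of Blvrb and Hmox1 was not tested.

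**Figure D3:**
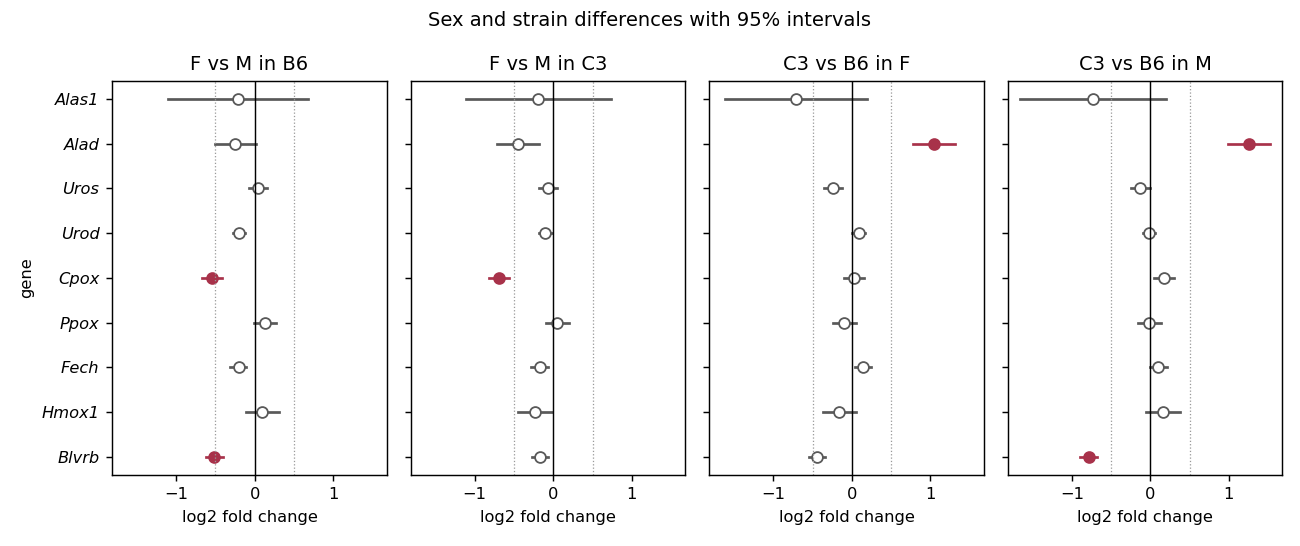
Log2 fold changes of the 9 genes in the 4 pairwise comparisons, with 95% intervals as horizontal lines; filled points passed an adjusted p of 0.001 and a log2 fold change of 0.5, and dotted lines mark 0.5 in either direction. Alad lies at 1.05 and 1.25 in the strain comparisons, Cpox at -0.55 and -0.69 in the sex comparisons, and the interval of Alas1 spans 0 in all 4.

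Counted over the list, 2 of the 9 genes were called as lower in B6 females than in B6 males, Cpox and Blvrb, and none as higher, while 6.34% of all genes tested were called (3.12% as lower and 3.23% as higher). Both lay close to the fold threshold of 0.5. Without pool 3 the count fell to 0 (log2 fold changes of -0.56 and -0.45 from 13 libraries, adjusted p = 0.0016 and 0.00091). It was also 0 without B6 male replicate 1 (-0.50 and -0.49, adjusted p = 6.2e-06 and 3e-06), and 1, Cpox, without B6 female replicate 2 or B6 male replicate 3. In C3, 1 gene was called as lower in females, Cpox, against 6.90% of all genes called (2.79% as lower and 4.11% as higher). It became 2 when C3 female replicate 2 was left out. Of all calls by sex, 50.9% in B6 and 59.6% in C3 were higher in females, which became 64.3% and 70% with upper-quartile normalization, while Cpox and Blvrb kept negative values with every normalization tried. The median log2 fold change of the 9 genes was -0.21 in B6 and -0.17 in C3, beside 0.002 and 0.015 over all genes tested.

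Between strains, 1 of the 9 genes was called in females, Alad as higher in C3, against 9.40% of all genes (4.63% as higher and 4.77% as lower). The strain comparison in males had 2 calls, Alad as higher and Blvrb as lower in C3, against 9.64% of all genes (4.09% as higher and 5.55% as lower). The median log2 fold change of the 9 was -0.09 in females and -0.02 in males, beside 0.019 and 0.015 over all genes. The groups of 5 livers did not overlap for 1 gene in the B6 sex comparison (10.9% of all genes), none in the C3 sex comparison (13.1%), 1 in the female strain comparison (12.8%) and 2 in the male strain comparison (15.1%). These shares of the 9 genes rest on 0 to 2 genes each. At an adjusted p of 0.05 without a fold threshold, the counts were 4 (34.6% of all genes), 5 (40.0%), 4 (32.9%) and 3 (34.5%). No gene was called for a different sex effect between the strains by edgeR (0.401% of all genes), DESeq2 or limma. At an unadjusted p under 0.05 each of the 3 tools gave 2 genes, where edgeR gave 16.1% of all genes, and at an adjusted p of 0.05 edgeR gave 1, Blvrb (2.96% of all genes). In the 4 pairwise comparisons the share of all genes at an unadjusted p under 0.05 by edgeR was 44.4% and 49.0% by sex in B6 and C3 and 41.9% and 44.3% by strain in females and males, against which such counts of other lists are to be read. The comparisons share groups of livers, so their counts are not independent.

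Alas1 (11655, chr9:106135786-106150285), the rate-limiting first enzyme of hepatic heme synthesis, varied more between livers of a group than between groups. Its normalised read counts were 101, 236, 57.0, 147 and 327 CPM in B6 females and 104, 313, 192, 90.8 and 321 CPM in B6 males. In C3 females they were 100.2, 186, 31.2, 80.1 and 84.5 CPM, and in C3 males 106, 143, 128, 72.6 and 105 CPM. The highest liver exceeded the lowest by 5.95-fold in C3 and 5.74-fold in B6 females, and by 3.54-fold in B6 and 1.98-fold in C3 males, and all 4 groups overlapped. The log2 fold change of C3 against B6 was -0.71 in females (95% interval -1.61 to 0.20, adjusted p = 0.23) and -0.73 in males (-1.66 to 0.20, adjusted p = 0.22). When edgeR was fitted on only the libraries of the groups compared, the value in males was -0.83 (adjusted p = 0.022). In females it was -0.73 (adjusted p = 0.32), and neither was called. The sex difference was -0.21 in B6 (-1.10 to 0.68) and -0.19 in C3 (-1.12 to 0.73). Single livers moved these values: with 1 left out, the strain value ran from -1.30 to -0.41 in females and from -0.89 to -0.57 in males, while the sex value lay between -0.49 and -0.004 in B6, and between -0.63 and -0.01 in C3. The lowest female strain value came without C3 female replicate 2 (adjusted p = 0.023) and the highest without B6 female replicate 2 (adjusted p = 0.54), and neither was called. The lower ends of the strain intervals lie farther from 0 than the strain differences of Alad, so a decrease in C3 of that size could not be told from none.

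The residual SD of Alas1 after sex, strain and pool was 0.77 on the log2 scale, beside a median of 0.16 over all genes tested and at percentile 98.8 among them. Alad and Hmox1 were near the middle (0.21 and 0.17, percentiles 63.7 and 51.2). The other 6 enzymes lay low, from 0.04 for Urod (percentile 0.0803) to 0.10 for Ppox (percentile 19.4). Livers were collected over several hours of the morning, and the order of collection is not in the labels. The 3 genes most like Alas1, chosen after its spread was seen, were Hspa8, Noxred1 and Kpna2, at root mean square log2 differences of 0.51, 0.52 and 0.53 against 0.85 for Alas1 from its own mean. These differences are larger relative to the gene's own spread than those of the genes most like Alad, Cpox and Blvrb. The 11 clock genes examined, a list that leaves out Nr1d1 and Nr1d2, gave no call in any comparison with edgeR. At an unadjusted p under 0.05 edgeR gave 6 of the 11 in each sex comparison, 1 in the strain comparison in females and 3 in males (44.4%, 49.0%, 41.9% and 44.3% of all genes), and DESeq2 called 2 in the C3 sex comparison. Nr1d1 and Nr1d2 were counted among the regulators of heme synthesis instead. By edgeR, Nr1d2 was called as higher in B6 females than in B6 males (0.82, adjusted p = 0.0006). Nr1d1 was not called, with 1.26 in that comparison (adjusted p = 0.0065) and 1.24 for C3 against B6 males (adjusted p = 0.0069).

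**Figure D4:**
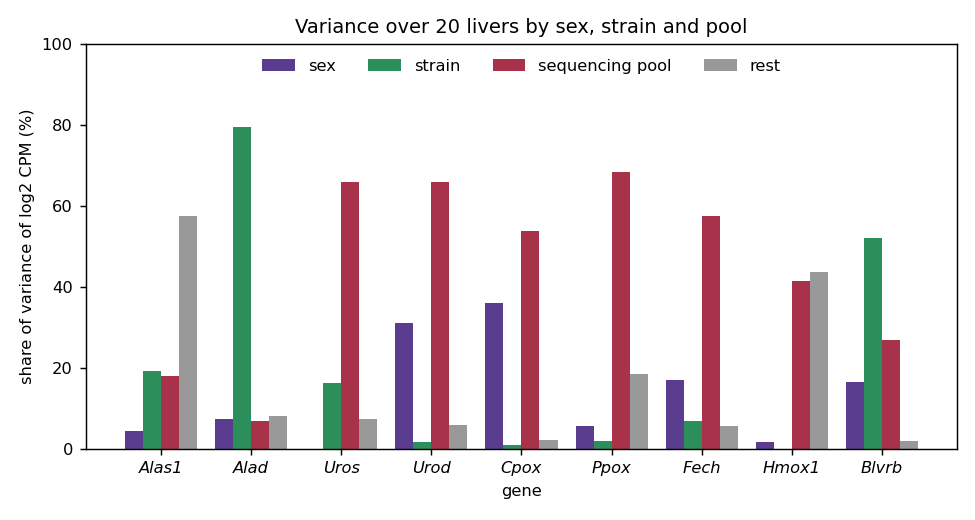
Share of the variance of log2 CPM over the 20 livers (vertical axis, percent) held by sex, strain, sequencing pool and the rest, for each of the 9 genes; shares of sex, strain and pool are each given beyond the other factors, so they need not sum to 100, and the interaction share, 13.4% for Hmox1 and at most 4.14% for the others, is not drawn. Strain holds 79.6% for Alad and 52.1% for Blvrb, pool holds 68.3% for Ppox, and the rest holds 57.5% for Alas1.

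The remaining enzymes of synthesis kept a narrow range. Uros, which closes the porphyrin ring, lay between 14.8 and 24.9 CPM over all livers, and Ppox, which makes protoporphyrin, between 12.1 and 18.3 CPM. Urod, the decarboxylase of the cytosolic step, lay between 48.6 and 68.4 CPM. None of the 3 was called, and no sex or strain difference among them exceeded 0.24 on the log2 scale in size. Urod had female against male log2 fold changes of -0.20 in B6 (SE 0.04, adjusted p = 0.00044) and -0.10 in C3 (SE 0.04, adjusted p = 0.045). For Uros, the C3 against B6 value was -0.24 in females (SE 0.06, adjusted p = 0.0027) and -0.13 in males (adjusted p = 0.091). Ppox values lay between -0.09 and 0.13 in the 4 comparisons. All 4 sex values of Urod and Fech were negative. Fech, which inserts iron into protoporphyrin, lay between 133 and 231 CPM, with female against male values of -0.21 in B6 (SE 0.05, adjusted p = 0.0031) and -0.17 in C3 (SE 0.05, adjusted p = 0.010). Its C3 against B6 values were 0.14 in females (adjusted p = 0.037) and 0.10 in males (adjusted p = 0.11).

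Pool held more of the variance of Uros (65.8%), Urod (65.9%), Cpox (53.8%), Ppox (68.3%), Fech (57.5%) and Hmox1 (41.5%) than sex and strain did. The enzymes moved with pool in both directions. Relative to pool 1, pool 3 was higher for Alad (1.31-fold), Uros (1.30-fold), Ppox (1.29-fold), Hmox1 (1.24-fold) and Urod (1.19-fold), and lower for Cpox (0.552), Blvrb (0.716) and Fech (0.777). The groups were spread over the pools, and pool was fitted beside them.

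Hmox1, the inducible heme oxygenase, did not pass a threshold in any comparison. Its mean was 20.5 ± 1.91 CPM in B6 and 18.5 ± 2.51 CPM in C3 females, and 19.3 ± 3.31 CPM in B6 and 21.4 ± 4.48 CPM in C3 males (SD, n = 5 each). Its log2 fold change of female against male was 0.10 in B6 (SE 0.10) and -0.23 in C3 (SE 0.10, adjusted p = 0.087). The difference between these was -0.32 with an adjusted p of 0.27. C3 against B6 gave -0.16 in females and 0.17 in males, with intervals of -0.37 to 0.05 and -0.05 to 0.38.

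Other enzymes of the route outside the list include Alas2, Hmox2 and Blvra. Hmox2, the constitutive heme oxygenase, had a C3 against B6 value in males of 0.29 (SE 0.05, adjusted p = 5.8e-05), under the fold threshold, and 0.05 in females. Blvra, the main biliverdin reductase, was at 5.00 to 13.8 CPM, with C3 against B6 values of 0.39 in males (SE 0.08, adjusted p = 0.0011) and 0.21 in females (adjusted p = 0.049). Blvra thus had positive strain values in both sexes where those of Blvrb were negative. Alas2, the erythroid form of the first enzyme, was the exception by size: 19.7 to 32.5 CPM in B6 and 15.9 to 28.4 CPM in C3 females, against 146 to 187 CPM in B6 and 196 to 226 CPM in C3 males. Its log2 fold changes of female against male were -2.76 and -3.28 (adjusted p = 3.7e-11 and 5.6e-12), while Hmox2 and Blvra were not called in either strain. None of the 3 was called between strains by edgeR, DESeq2 or limma, where edgeR gave 1 in females, Blvra, and all 3 in males at an unadjusted p under 0.05. The erythroid transcription factor Klf1 was called in the other direction in B6, at 3.73 CPM in females and 2.38 CPM in males (0.66, SE 0.13, adjusted p = 0.00055), and was not called in C3 by edgeR (0.63, adjusted p = 0.0011). DESeq2 and limma each called 1 of the 3 erythroid markers tested in the C3 sex comparison. Slc4a1, a membrane protein of red cells, had group means no higher than 0.422 CPM.

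Genes that carry heme, its precursors and iron were examined next, of which 14 of 16 were found and tested. Flvcr1 and Flvcr2 were not analysed here. In B6, 3 of the 14 were called as lower in females: Abcb10, a mitochondrial transporter that aids heme synthesis (-0.95, SE 0.07, adjusted p = 1.8e-08), Slc25a37 (mitoferrin), which brings iron into mitochondria (-0.66, SE 0.09, adjusted p = 2.1e-05), and Abcg2, which exports porphyrins among other substrates (-1.81, SE 0.08, adjusted p = 6.8e-12). In C3, 2 were called as lower in females, Abcb10 (-0.86) and Abcg2 (-1.88), while Slc25a37 had a value of -0.34 (adjusted p = 0.0077). None was called between strains by edgeR, DESeq2 or limma, although edgeR gave 5 in females and 8 in males at an unadjusted p under 0.05. The median log2 fold change of the 14 was -0.10 in the B6 and -0.24 in the C3 sex comparison. Hpx, the plasma protein that binds free heme, was at 2561 to 3027 CPM in the group means and was not called.

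Of 12 regulators of heme synthesis and heme oxygenase, 1 was called. Nr1d2, a heme-binding nuclear receptor of the clock, was higher in B6 females than in B6 males (0.82, SE 0.16, adjusted p = 0.0006), and had a value of 0.26 in C3 (adjusted p = 0.20). The difference between these was -0.56 with an adjusted p of 0.20. None of the 12 was called in C3 by sex or between strains with edgeR, while at an unadjusted p under 0.05 there were 4 in the C3 sex comparison, 4 in the strain comparison in females and 6 in males. DESeq2 called 1, 0 and 1 in the same comparisons, and limma none. Bach1, the heme-sensing repressor of Hmox1, had values between -0.19 and 0.05 in the 4 pairwise comparisons.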

How the data were processed

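RNA of 20 mouse livers was measured by strand-specific sequencing after ribosomal RNA depletion. Raw counts of read pairs, summed by gene, are what the authors deposited, made with cutadapt 1.9.1, STAR 2.5.1b on mm9 and featureCounts of Subread 1.5.0-p1 on RefSeq genes, without multimapping or multi-overlapping pairs. The authors also deposited TPM values, whose gene length is not given in the sources used here and which served only to compare genes and in limma. The headers of the symbol and identifier columns are exchanged in the tables and were read by content.

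Tests used edgeR 4.0.16 in R 4.3.3 on the raw counts: filterByExpr, TMM, and a quasi-likelihood fit of group and pool over all 20 libraries. Benjamini-Hochberg adjustment ran over all 13704 genes that passed the filter. A gene was called at an adjusted p under 0.001 and a log2 fold change over 0.5 in either direction. CPM uses TMM-scaled library sizes, and log2 CPM used a prior count of 2. Intervals are 95% intervals of the fit. P-values rest on a spread between mice that was estimated over all 20 libraries after group and pool, with 5 mice per group. They do not measure the spread of the compared groups alone. Replicates differed beyond counting error, at 21.0 to 198 units of chi-square for each degree of freedom. Total counts per library, 27370921 to 46835745, limit precision for counting error only.

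The members and lists were chosen with earlier results of these data known. Named were every member, other enzymes of the route (1 of them is not reported here), the called genes of the lists of transport, regulators, bilirubin disposal, clock and Nrf2 targets (at most 4 each), called or most abundant cell type markers, and the 3 genes most like each called member. Other genes, among them Pole3, Hpx, Bach1, Slc4a1, Abcc2 and those like Alas1, were chosen after their values were seen. In simulated data with 200 changed genes among 13704, 63 of 98 with a 2-fold and 96 of 102 with a 4-fold change were called in the B6 sex comparison, with 0 false calls. The simulated counts held no pool effect and no other group difference, so they give no rate of false calls for the real libraries.

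Alternatives were DESeq2 1.42.0, limma 3.58.1 on log2(TPM + 1) and log2(TPM + 0.1), glmTreat against 0.5, other normalizations, filters and thresholds, no pool covariate, a replicate block, only the libraries of the groups compared, and each liver left out. Leaving out pool 3 was chosen after seeing the data. Promoters were read from RefSeq (GRCm38.p6) and located in mm9.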

Additional observations from a re-analysis of the deposited data

Results flagged for a closer look

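The lowest C3 male liver for Blvrb stood apart from the other 4 of its group, at 54.2 CPM against 68.1 CPM for the next, a gap of 0.718 of the range of the group, where 0.71 is the limit for 5 samples. It is the single C3 male liver of pool 3, and the pool 3 livers were the lowest for Blvrb in each of the other 3 groups too. Chance gives such a gap in about 1 in 20 groups, and among the 36 groups of 5 livers examined this was the only 1. The sex difference of Blvrb differed between the strains by 0.34 on the log2 scale (adjusted p = 0.0096, edgeR's interaction test), with 76.6 against 109 CPM in B6 females and males and 56.4 against 66.9 CPM in C3 females and males.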

How the results depend on the processing

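The count of members called in the B6 sex comparison, 2, was 0 with limma at either pseudocount, with glmTreat, with upper-quartile normalization, without the pool covariate and without pool 3, 4 at an adjusted p of 0.05, and 0 to 2 when 1 liver was left out. In the C3 sex comparison the count of 1 became 0 with glmTreat and without the pool covariate, 5 at an adjusted p of 0.05, and 1 to 2 with 1 liver left out. The female strain count of 1 became 2 with limma at either pseudocount, where Blvrb was added (-0.51), 0 without pool 3 and 4 at an adjusted p of 0.05, and stayed at 1 with any liver left out. The male strain count of 2 became 1 without the pool covariate and stayed at 2 with any liver left out. The interaction count of 0 became 1 at an adjusted p of 0.05 and stayed at 0 with any liver left out. Dropping the pool covariate raises the residual spread by construction, and leaving out pool 3 leaves 13 libraries. For the other changes the cause was not tested.

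Of 1476 values of members under the alternatives, 28 changed sign, all of them uncalled. For Uros in the C3 sex comparison (-0.07) they were 0.039 and 0.043 with limma and 0.013 without the pool covariate, and for Urod there (-0.10) 0.011 with limma at either pseudocount. For Cpox in the female strain comparison (0.03) they were -0.041 with limma at either pseudocount and -0.007 with upper-quartile normalization. In the male strain comparison Ppox (-0.02) was 0.038 without pool 3 and -0.041 to 0.014 with 1 liver left out, and Urod (-0.02) was -0.035 to 0.003 with 1 liver left out. The interaction of Alas1 (0.02) was -0.12 and -0.125 with limma, -0.058 with the replicate block, -0.004 without pool 3 and -0.473 to 0.336 with 1 liver left out, and that of Fech (0.03) was -0.043 without the pool covariate and -0.015 without pool 3. On TPM, as used by limma with a pseudocount of 0.1, the median of all genes lay at 0.11 in the B6 and 0.12 in the C3 sex comparison, so the sex values of members there are to be read against that shift. The female-higher share of all calls was 50.9% in B6 and 59.6% in C3, and became 64.3% and 70% with upper-quartile normalization, 68.8% and 73% with limma at a pseudocount of 1, and 71.6% and 77.4% at 0.1. Over all genes the calls in the order B6 sex, C3 sex, female strain, male strain and interaction, 869, 945, 1288, 1321 and 55, became 380, 428, 626, 786 and 4 without pool 3 and 294, 314, 525, 585 and 24 with glmTreat. Without the pool covariate the first 3 and the last became 421, 482, 815 and 20. The C3 sex count became 625 on only the groups compared, and the interaction count 181 with DESeq2 and 32 to 34 without B6 male replicate 1, C3 male replicate 4 or C3 female replicate 1.

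The replicate numbers did not pair the livers: the mean correlation of deviations of same-numbered livers was -0.19, -0.24, 0.22 and 0.18 in the 4 comparisons, and 0.10, -0.01, 0.06 and 0.01 once pool was removed. With the replicate block the counts of called members stayed at 2, 1, 1, 2 and 0. The fit on only the libraries of the groups compared was not run for the interaction, which uses all groups.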

Other observations

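Of 6 genes that take up, conjugate and export bilirubin, 2 were called as higher and 1 as lower in females of each strain, and none was called between strains with edgeR or DESeq2, where edgeR gave 4 in females and 3 in males at an unadjusted p under 0.05 and limma called 1 in males. Ugt1a1, which conjugates bilirubin, was 1.62-fold higher in B6 females than in B6 males (log2 fold change 0.70, SE 0.10, adjusted p = 3.1e-05) and 1.56-fold higher in C3 females (0.65, SE 0.10, adjusted p = 9.4e-05). Its exons are shared with other Ugt1a genes, so its counts are uncertain. The uptake transporters Slco1a4 and Slco1a1 went opposite ways, with Slco1a4 higher in females (1.89 in B6 and 1.82 in C3) and Slco1a1 lower (-1.63 in B6 and -2.20 in C3). Abcc2, which exports conjugated bilirubin into bile, had a C3 against B6 value in males of -0.47 (adjusted p = 0.00042), under the fold threshold.

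Among 6 targets of Nrf2, a factor that also induces Hmox1, 5 were tested. Their median log2 fold change of female against male was -0.124 in B6 and -0.12 in C3. Nqo1, a quinone reductase, was called as higher in females of both strains (0.90 in B6 and 1.53 in C3, adjusted p = 7.4e-05 and 4.7e-07) and as lower in C3 than in B6 males (-1.21, adjusted p = 5.2e-06). Srxn1 was called as lower in C3 than in B6 males (-0.57, adjusted p = 3.3e-05). In the strain comparison in females edgeR and limma called none and DESeq2 called 1, with 2 at an unadjusted p under 0.05 by edgeR.

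Of the other cell type markers, Apoa1 was called as higher in C3 in both sexes (0.84 and 0.71) and Cyp2e1 as lower in C3 females (-0.53). Cd4 was the lone lymphocyte marker called, as lower in females of both strains (-1.995 and -2.56), while the 7 lymphocyte markers tested had female against male medians of 0.40 in B6 and 1.36 in C3, and the 6 others all had positive values. Sox9 was the lone cholangiocyte marker called, as lower in females of both strains (-1.42 and -0.84) and as higher in C3 than in B6 females (0.85), while the medians of the 5 by sex were 0.04 and 0.45. Vsig4 was called by edgeR as higher in females of both strains (0.75 and 0.51), while DESeq2 called 0 of the 8 Kupffer cell markers by sex in C3. Ly6g was called as higher in B6 females (1.01), S100a9 as higher in C3 females than C3 males (1.89), and Lyve1 as lower in C3 than in B6 females (-0.98). The summed lymphocyte and neutrophil lists stayed at or below 7.95 and 5.53 CPM in every liver, and the cholangiocyte list between 21.6 and 43.7 CPM. The part of these cells in the values of the heme enzymes was not tested.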
